A study of Mus musculus with 8 samples.

Results

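The cells described here were 4273 monocytes from mouse MC38 colon carcinomas that carried few transcripts of the complement C1q genes and of Arg1, out of 12330 tumor cells with a genotype label and 30281 labelled cells in all 4 libraries. They were picked by measured values. A droplet barcode needed at least 500 gene UMIs (unique molecular identifiers, each standing for 1 captured transcript), at least 200 genes, at most 25% mitochondrial UMIs and at least 20 UMIs of the hashtag antibodies. Among these, a cell needed 3 or more UMIs of the monocyte and macrophage genes Csf1r, Cd14 and Ccr2 together, fewer than 5 of the migratory dendritic cell genes Ccr7, Fscn1 and Cacnb3, and less than 1% of its gene UMIs from 6 neutrophil genes (Csf3r, Cxcr2, G0s2, Hdc, S100a8 and S100a9), which left 9678 gated tumor cells. The C1q-low Arg1-low monocytes were the gated cells with at most 2 UMIs of C1qa, C1qb and C1qc and under 20 of Arg1. The other gated cells were 3630 C1q-high cells and 1775 C1q-low Arg1-high cells. All of these genes served to choose the cells and their levels are given only as description.

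The study asked how myeloid YTHDF2, a reader protein of the m6A mark on RNA, bears on the response of tumors to ionizing radiation (IR). Every library came from CD45+CD11b+Ly6Chi cells sorted from MC38 tumors or from blood of MC38-bearing mice. The tumors had received either no IR (sham treatment in the paper's methods) or 1 dose of 20 Gy, with collection 3 days later. Cells of both genotypes were mixed in each library. WT mice carried floxed Ythdf2 without Cre and were stained with hashtag B0301, and cKO mice carried floxed Ythdf2 and Lyz2-Cre, a knock-in that replaces Lyz2 sequence with a recombinase active in monocytes, macrophages and neutrophils, and were stained with hashtag B0302. Cells were labelled WT where B0301 was at least equal to B0302 and cKO where B0302 was at least 4 times B0301. The C1q-low Arg1-low monocytes comprised 1143 cells labelled WT and 549 labelled cKO in control tumors, and 1312 and 1269 after IR. Each of these 4 groups was the pool of 5 mice in 1 library, so there was 1 sample per group, no test between groups was possible, and every interval below is a 95% interval that covers counting error only.

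Monocytes leave the bone marrow in the blood and enter tumors through the chemokine receptor Ccr2. Classical monocytes are marked by Ly6C, Plac8 and Vcan. In the tissue they lose these genes as they become macrophages, which gain C1q, Mrc1, Apoe and Folr2, or cells with high Arg1, an arginine-degrading enzyme known from suppressive myeloid cells. Type I interferon switches on a shared set of antiviral genes in such cells, among them Rsad2, the Ifit genes, Isg15 and the chemokine gene Cxcl10.

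Because most interferon genes differed in the same direction after IR in these monocytes, short stretches of the promoters of 5 of them are shown first, with the motif GAAANNGAAA in capitals. This is the spaced repeat that interferon-stimulated response elements share, and it was searched on both strands, so that it can also read TTTCNNTTTC. Sequences are 5′ to 3′ on the strand of the gene, from RefSeq promoters (250 bases before to 50 after a start site, GRCm38.p6), and each holds the match nearest to the start site.
Cxcl10: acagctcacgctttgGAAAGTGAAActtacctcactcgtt
Rsad2: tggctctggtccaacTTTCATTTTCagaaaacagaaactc
Ifit1: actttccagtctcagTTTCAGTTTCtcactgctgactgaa
Ifit3: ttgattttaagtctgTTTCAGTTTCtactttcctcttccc
Isg15: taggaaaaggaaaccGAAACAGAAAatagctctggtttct

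The stretches lie at chr5:92349078-92349117 (minus strand), chr12:26456548-26456587 (minus strand), chr19:34640789-34640828 (plus strand), chr19:34583392-34583431 (plus strand) and chr4:156200860-156200899 (minus strand), and their first motif base is 213, 120, 85, 122 and 66 bases before the start site. The motif occurred in 1131 of 32851 mouse promoter windows (3.44%) and in 262 of the 5637 genes with a window that were counted under both labels (4.65%). Of 132 genes that were at least 2-fold higher after IR under both labels, 112 had a window and 41 of these held the motif (36.6%). Of 54 genes at least 2-fold lower under both labels, 44 had a window and 2 held it (4.55%). In the interferon response list it occurred in 6 of 13 genes with a window, and in the list of interferon-γ induced genes in 4 of 7. In the lists of MHC class II genes, inflammatory cytokines and classical monocyte genes it occurred in 0 of 5, 0 of 7 and 0 of 5. A match is a description of the letters in the window. Whether any factor bound there was not measured.

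Several properties of the libraries bear on all values. Ythdf2 itself was counted at 47.4 and 322 CPM in control tumors and 51.5 and 339 CPM after IR, the first of each pair being cells labelled WT and the second cells labelled cKO, an order kept throughout. CPM here are UMIs of a gene per 1000000 gene UMIs, summed over the cells of a group. The Ythdf2 level thus went against the cKO label, although 3′ tags of a transcript outside the floxed exons do not check a deletion. Lyz2, whose locus carries the Cre, was at 9822 and 252 CPM in control tumors and 8242 and 148 CPM after IR, and Lyz1, a near-identical lysozyme gene to which reads can be misassigned, ran the other way at 6.83 and 113 CPM in control tumors and 7.95 and 141 CPM after IR. Groups are therefore named as cells labelled WT or cKO. Of the cells labelled WT, 303 in control tumors and 919 after IR had B0301 at 4 or more times B0302, and the other 840 and 393 had a margin of 1 to 4 times. Lyz2 was at 6299 and 11352 CPM in the clear and the narrow set of control tumors and at 6893 and 11399 CPM after IR, far above either cKO group. Most barcodes of the tumor libraries also appeared in the other tumor matrix: 1654 of 1692 control cells (97.8%) and 2539 of 2581 IR cells (98.4%) had 500 or more UMIs there, with a median of 0.457 and 0.591 of their own UMIs. Only 46 and 69 of them also passed the hashtag limits in the other matrix, and leaving those out moved no count of genes past the limit by more than 3. The source of the other shared barcodes was not resolved, and their part in the ratios of IR over control was not tested. The blood matrices shared at most 12 of these barcodes.

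Among labelled tumor cells, the C1q-low Arg1-low monocytes made up 42.3% (Clopper-Pearson interval 40.4 to 44.2%) of cells labelled WT and 24.04% (22.3 to 25.8%) of cells labelled cKO in control tumors. After IR the shares were 39.0% (37.3 to 40.6%) and 31.9% (30.5 to 33.4%). In control tumors the cells labelled cKO were 18.2 percentage points lower (15.7 to 20.8, Newcombe), beside a C1q-high share 14.4 points higher (11.8 to 17.1). After IR the share was 3.32 points lower in cells labelled WT (0.835 to 5.80) and 7.88 points higher in cells labelled cKO (5.58 to 10.1). C1q-high cells were less frequent after IR under both labels, by 7.52 and 14.4 points, and Arg1-high cells more frequent, by 7.61 and 8.67 points.

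**Figure D1:**
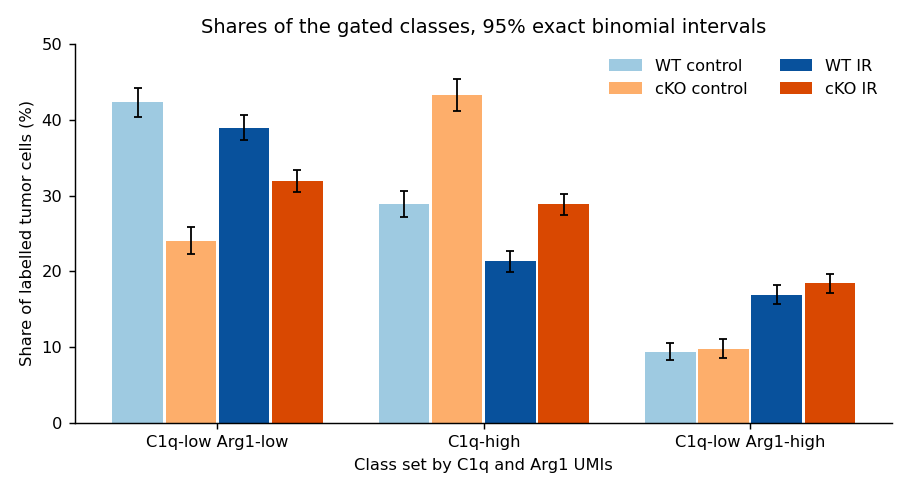
Share of labelled tumor cells (y axis, percent) in the 3 gated classes (x axis), with a bar for each label and treatment and error bars for 95% exact binomial intervals. The C1q-low Arg1-low bar of cells labelled cKO in control tumors, at 24.04%, is the lowest of its class, and the Arg1-high bars are higher after IR under both labels.

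These share differences moved with the hashtag margin and with depth. C1q-low Arg1-low cells held a median of 6168 and 6544 gene UMIs in control tumors and 5870 and 5961 after IR, against 7649 to 10564 in C1q-high cells, and in each group their share of gated cells was lower from 10000 UMIs than below 3000, for example 22.1% against 68.2% in cells labelled WT of control tumors. Among cells labelled WT of control tumors, 27.9% of those with the clear margin but 51.9% of those with the narrow margin were C1q-low Arg1-low. With the clear margin required, the difference between labels in control tumors came to -3.89 points and the difference with IR in cells labelled WT to 7.86 points, of opposite sign to the value above. Within cells of 3000 to under 10000 UMIs, the difference with IR in cells labelled cKO was -1.46 points, also of opposite sign, and the difference between labels in control tumors was -14.5 points. The lower share under the cKO label in control tumors kept its sign but not its size, and the direction with IR turned under 1 of these settings for each label.

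The values that chose the cells show where their limits fell. The median cell held 17 to 24 UMIs of Csf1r, Cd14 and Ccr2 together, mostly of Cd14, the lipopolysaccharide co-receptor. No C1q UMI was found in 76.0 to 84.0% of cells and no Arg1 UMI in 48.5 to 63.3%. Just inside the C1q limit, 170 cells with 2 C1q UMIs had Plac8 at 3470 CPM and Apoe at 769 CPM, and just outside it, 116 gated cells with 3 C1q UMIs and Arg1 below its limit had 3898 and 652 CPM. At the Arg1 limit, 251 cells with 15 to 19 UMIs had Plac8 at 2828 CPM and Spp1 at 2340 CPM, and 200 cells with 20 to 24 had 2893 and 2529 CPM, so that levels on both sides of the C1q and Arg1 limits were close. At the gate limit, 235 cells with 3 UMIs of the gate genes (median 3012 UMIs) had Plac8 at 1591 CPM and Cd14 at 295 CPM, lower than at the other limits, and 284 cells just outside it with 2 such UMIs (median 2584.5 UMIs) had 1202 and 167 CPM. The 1940 cells without any C1q or Arg1 UMI had more Plac8 (4685 CPM) and less Spp1 (334 CPM).

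The 5 marker genes of this population were chosen with earlier results of these data known. They were led by Plac8, a small cysteine-rich protein abundant in blood monocytes. It was at 3058 and 2851 CPM in control tumors and 5559 and 5037 CPM after IR in the C1q-low Arg1-low monocytes, at 845 and 234 CPM in control tumors and 2771 and 2206 CPM after IR in C1q-high cells and at 617 and 652 CPM in control tumors and 2741 and 2379 CPM after IR in Arg1-high cells. Cxcl10, which encodes an interferon-induced chemokine for T and NK cells, was at 1347 and 2052 CPM in control tumors and 3043 and 2824 CPM after IR, against 637 and 849 CPM in control tumors and 1366 and 1106 CPM after IR in C1q-high cells. Both were higher in the C1q-low Arg1-low monocytes than in either other class in each of the 4 groups. Adora2b, the low-affinity receptor for adenosine, was at 129.8 and 155 CPM in control tumors and 127 and 123 CPM after IR, with log2 ratios of 1.03 to 1.35 over C1q-high cells and 0.25 to 0.72 over Arg1-high cells. Havcr2, the checkpoint receptor TIM-3, was at 180.3 and 159 CPM in control tumors and 191 and 193 CPM after IR, with log2 ratios of 0.51 to 1.44 and 0.63 to 1.20. Olr1, a scavenger receptor for oxidized lipoprotein, was the exception. It was at 83.1 and 159 CPM in control tumors and 87.2 and 100.4 CPM after IR, above C1q-high cells in each group, but at 107 and 239 CPM in control tumors and 70.7 and 106 CPM after IR in Arg1-high cells, which were higher in 3 of the 4 groups. By the GENCODE vM21 annotation of mm10, the 5 genes lie at chr5:100553725-100572245 (Plac8, minus strand), chr5:92346638-92348889 (Cxcl10, minus strand), chr11:62248984-62266453 (Adora2b, plus strand), chr11:46454935-46481255 (Havcr2, plus strand), chr6:129485244-129507165 (Olr1, minus strand). As the cells were chosen by value, these contrasts between classes are a description with no test.

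**Figure D2:**
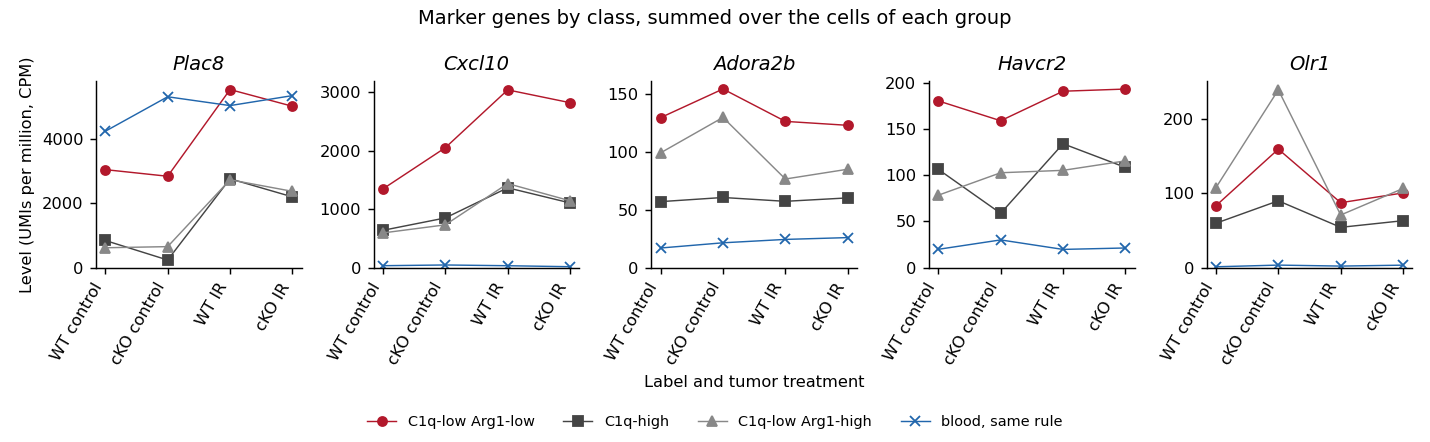
Level of 5 genes (y axis, CPM) in the 4 combinations of label and tumor treatment (x axis), for the 3 gated tumor classes and for blood cells picked by the same rule, with lines that only join the points of a class. Plac8, Cxcl10, Adora2b and Havcr2 are highest of the tumor classes in the C1q-low Arg1-low monocytes in each group, whereas Olr1 is higher in Arg1-high cells except after IR in cells labelled WT.

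Single cells were compared after thinning to 2000 UMIs each. Plac8 was then found in 77.9% and 75.2% of C1q-low Arg1-low monocytes in control tumors and in 91.9% and 89.7% after IR (83.2, 79.6, 91.8 and 90.1% unthinned), against 14.1 to 72.0% of C1q-high cells. Among Arg1-high cells it was found in 36.5 to 74.0%. In the same libraries it was found in 21.9% and 22.3% of lymphoid cells (median 2767 and 2302 UMIs), some of which express it, and in 0.318% and 4.76% of stromal cells (median 27339 and 32607 UMIs), in which UMIs of monocyte genes would come from free RNA. Cxcl10 was found in 27.0 and 33.2% and, after IR, in 50.4 and 50.9% of these monocytes, against 6.01 and 17.9% of the lymphoid cells and 15.3 and 46.0% of the stromal cells, so that after IR its share was near that of stromal cells. Unthinned, it was found in 35.5 and 46.4% of the monocytes and, after IR, in 60.1 and 58.2%. Adora2b, Havcr2 and Olr1 were found after thinning in 19.9 to 25.3%, 27.8 to 28.9% and 12.9 to 24.6%, against at most 2.19% of lymphoid and stromal cells. Unthinned, these shares were 41.7 to 51.7%, 51.4 to 53.1% and 24.2 to 40.4%, so they depend on depth and do not limit how many cells express a gene. The other gated classes were closer than lymphoid and stromal cells. After thinning, the same genes were found in 8.08 to 11.8%, 11.2 to 20.7% and 9.0 to 13.9% of C1q-high cells. For Arg1-high cells the shares were 15.5 to 19.4%, 13.5 to 20.0% and 11.1 to 26.1%. That of Olr1 was above the C1q-low Arg1-low share except after IR in cells labelled WT.

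Of the lists of blood monocyte genes, the nonclassical list was mostly higher than in both other tumor classes, while the classical list was split against Arg1-high cells. The 7 counted nonclassical monocyte genes had medians of 1.20 to 1.82 over C1q-high cells and 1.23 to 2.20 over Arg1-high cells on the log2 scale. The 10 classical monocyte genes, which include Plac8, had medians of 0.55 to 1.56 over C1q-high cells and 0.02 to 0.28 over Arg1-high cells, where 5 were above and 5 below 0 in both control groups. By smallest ratio over the 4 groups, the leading genes outside the rule were Gzmc, Cd209a, Klrd1, Ifitm6, Adgre4, Hpgd, Hp, Ace, Pglyrp1, Gzmb, Nkg7 and Gzma. Ifitm6, an interferon-induced membrane protein of myeloid cells, was at 168 and 152 CPM in control tumors and 227 and 204 CPM after IR, against 8.02 to 36.2 CPM in the other gated classes. Hp, the hemoglobin scavenger haptoglobin, was at 228 and 249.5 CPM in control tumors and 299.96 and 341 CPM after IR, against 13.8 to 49.1 CPM. Ace and Adgre4 (also called EMR4), both known from patrolling monocytes, were at 51.7 to 63.1 CPM and 15.8 to 25.002 CPM, with log2 ratios over all other gated cells of 2.62 to 4.47 and 2.70 to 3.68. Cd209a, a C-type lectin of monocyte-derived dendritic cells, was at 58.6 and 48.7 CPM in control tumors and 33.5 and 55.6 CPM after IR, against 0 to 3.44 CPM. Ace and Cd209a were found in 7.56 to 10.6% and 2.34 to 4.67% of thinned cells and in at most 1.71% and 0.411% of those of the other classes, and unthinned in 14.0 to 16.8% and 3.28 to 6.39%.

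Of the 12 leading genes, 5 belong to cytotoxic lymphocytes and rested on few cells. Gzmc, a granzyme, was at 509.7 and 288 CPM in control tumors and 17.7 and 75.8 CPM after IR. Its UMIs came from 23, 10, 1 and 8 cells in the same order, and the 5 highest cells held 75.03% of them in cells labelled WT of control tumors. The whole list of 9 T and NK cell genes summed to 250.02 and 373 CPM in control tumors and 146 and 183 CPM after IR, against 6.91 to 58.9 CPM in the other classes. At least 3 UMIs of that list were found in 24, 18, 11 and 23 cells (2.10, 3.28, 0.838 and 1.81%). B cell genes reached that count in at most 1 cell of a group, and stromal or carcinoma genes in 14, 10, 8 and 8 cells. Conventional dendritic cell genes reached it in 7.26, 5.83, 3.35 and 3.78% of cells. The list of 12 macrophage genes reached it in 78.7, 69.9, 73.1 and 72.0%, so most cells carried some macrophage transcripts. Granzymes are also near-identical copies among which reads can be misassigned.

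Macrophage genes were lower, in cells that were chosen for low C1q. The 12 leading genes below the other gated cells were Pf4, Ccl8, Mrc1, Folr2, Ms4a7, Ptgs1, Ccl12, Mertk, Etv1, Ch25h, Pdpn and Ccl7. Pf4, a chemokine gene of resident macrophages and platelets, was at 30.2 and 21.9 CPM in control tumors and 37.3 and 43.5 CPM after IR, against 1228 and 1419.7 CPM in control tumors and 1409 and 2388 CPM after IR in C1q-high cells. Mrc1, the mannose receptor CD206, was at 31.6 and 26.5 CPM in control tumors and 10.6 and 21.6 CPM after IR, against 420.1 and 664 CPM in control tumors and 175 and 299 CPM after IR. Folr2, a folate receptor of perivascular macrophages, stayed at or below 1.55 CPM, against 17.4 to 64.6 CPM in C1q-high cells. Pdpn, the podoplanin gene, was at 84.3 to 94.6 CPM, against 354 to 518 CPM in both other classes. Over the counted macrophage genes (12 in 3 groups and 11 in cells labelled cKO of control tumors) the median log2 ratio to C1q-high cells was -3.14 to -2.01 over the 4 groups, beside -0.094 to -0.025 over all genes counted.

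Glycolysis and interferon-γ genes separated these monocytes from the Arg1-high cells. The 13 counted hypoxia and glycolysis genes were all lower than in Arg1-high cells in each group, with medians of -0.95 to -0.73 on the log2 scale. Vegfa, the vascular growth factor, was at 436 and 313 CPM in control tumors and 360.1 and 356 CPM after IR, against 841 and 594 CPM in control tumors and 778 and 683 CPM after IR. Interferon-γ induced genes were higher, with medians of 0.99 to 1.12. Among them Irf1, a transcription factor, was at 403 and 453 CPM in control tumors and 508 and 481 CPM after IR, against 148 and 149.6 CPM in control tumors and 196 and 201 CPM after IR, whereas Nos2, the inducible nitric oxide synthase, was the 1 gene of that list below Arg1-high cells in each group, at 94.2 and 69.6 CPM in control tumors and 141 and 227 CPM after IR against 256 and 199 CPM in control tumors and 416 and 527 CPM after IR. Thbs1 (thrombospondin) and Cxcl2, a neutrophil chemokine, were also lower, with log2 ratios of -0.83 to -0.63 and -1.81 to -1.25.

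The same rule picked 4061 blood cells, 98.7 to 99.6% of the gated cells there, so in blood it kept nearly every gated cell. What share of all blood monocytes passed the gate was not measured. Plac8 differed little between the tissues, with log2 ratios of tumor over blood of -0.90 to 0.14. Cxcl10 was at 13.8 to 43.6 CPM in blood, with log2 ratios of 5.42 to 7.67, and Il1b, encoding the cytokine IL-1β, at 98.9 to 214 CPM, with ratios of 5.19 to 6.29. Vegfa was at most 2.97 CPM in blood. Nonclassical monocyte genes were mostly lower in the tumor, with medians of -2.02 to -1.18 and 5 to 7 genes 2-fold lower per group and 0 higher. The 10 classical monocyte genes had medians of -0.85 to -0.29, with 4 genes 2-fold lower and 2 higher in each group. In control tumors 8 were below 0 in cells labelled WT and 7 in cells labelled cKO. After IR 8 were below 0 in cells labelled cKO, while 5 were above and 5 below 0 in cells labelled WT. Of single genes named for their low ratios, Cx3cr1, the fractalkine receptor, had log2 ratios of -2.70 to -2.54, F13a1, a coagulation factor gene of classical monocytes, of -2.13 to -1.72, and Klf2, a transcription factor, of -3.04 to -2.56. Chil3, a chitinase-like secreted protein, had ratios of -1.71 to -1.47. The blood and tumor cells came from separate libraries, and tissue and library cannot be told apart.

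Of the 5 lists ranked within each group, the cells varied most in MHC class II, the molecules that present antigen to helper T cells. The 8 genes of that list took a median of 0.833% and 0.780% of a cell's gene UMIs in control tumors and 0.209% and 0.335% after IR, while the range from the 10th to the 90th percentile ran from 0.0321 to 5.77% in cells labelled WT of control tumors and from 0.0232 to 3.49% after IR. Each group was split by that share into 4 equal sets of cells, which is a split on measured values. The set with the most MHC class II had more Cd209a (136 against 11.9 CPM in the set with the least, cells labelled WT of control tumors) and more Itgax, the integrin CD11c (151 against 21.1 CPM). It had less Cxcl10 (532 against 1709 CPM), less Ly6c2 (493 against 933 CPM), less Chil3 (69.3 against 557 CPM) and less Ccl2, a monocyte-attracting chemokine (172 against 861 CPM). The same 6 directions appeared in each of the other 3 groups. Flt3, the receptor that marks dendritic cell descent, was at 5.16 and 8.78 CPM in the lowest and highest set of cells labelled WT and 2.87 and 23.9 CPM of cells labelled cKO in control tumors, and at 1.01 and 3.86 CPM and 1.61 and 1.95 CPM after IR.

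Interferon response genes and hypoxia genes ordered the cells differently. Of 4 sets split by interferon response UMIs, the highest had more Plac8 (4634 against 1080 CPM) and more Ly6c2 (1160 against 306 CPM) in cells labelled WT of control tumors, and neither gene is on that list. After IR the same set had Plac8 at 7577 against 3127 CPM and Ly6c2 at 2707 against 825 CPM. The set with the fewest hypoxia and glycolysis UMIs had more Plac8, Cxcl10, Ace, Ear2 and Cd209a and less Il1b and Thbs1: in cells labelled WT of control tumors, Ace was at 143 against 11.2 CPM and Il1b at 4987 against 10344 CPM. Across cells, Spearman's rho between the MHC class II and interferon shares was -0.112 to -0.0224 over 549 to 1312 cells per group that share their library, which is a description.

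**Figure D3:**
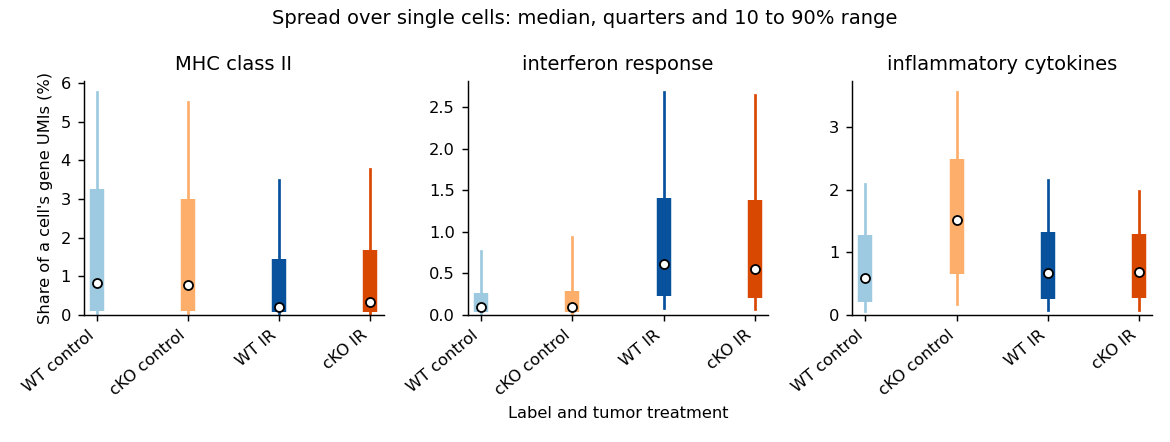
Share of each cell's gene UMIs (y axis, percent) held by 3 gene lists, for the C1q-low Arg1-low monocytes of each label and treatment (x axis), with the median as a point, the interquartile range as a thick bar and the 10th to 90th percentile as a thin line. MHC class II has the widest spread in each group, the interferon bars are higher in both IR groups, and the inflammatory cytokine bar is highest in cells labelled cKO of control tumors, at a median of 1.52%.

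After IR, interferon response genes were higher in these monocytes under both labels. A gene was counted where both groups together held 100 or more UMIs, and the limit was a 2-fold ratio of CPM (1 on the log2 scale, with 1 UMI scaled to depth added to each side). In cells labelled WT, 284 of 7479 genes passed it (3.8%), 164 higher (2.19%) and 120 lower (1.6%). In cells labelled cKO, 396 of 7012 genes passed it (5.65%), 219 higher (3.12%) and 177 lower (2.52%). Of 6984 genes counted under both labels, 132 were past the limit upward and 54 downward under both, and 0 were past it in opposite directions. The 2 comparisons share no cells but do share both libraries. The median ratio over all counted genes was -0.045 and 0.008 on the log2 scale.

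Of 15 counted interferon response genes, 14 were past the limit upward in cells labelled WT and 14 in cells labelled cKO, with medians of 2.71 and 3.49. Rsad2, which encodes the antiviral enzyme viperin, was at 156 and 52.1 CPM in control tumors and 1172 and 1109 CPM after IR, log2 ratios of 2.91 (2.83 to 3.002) and 4.41 (4.21 to 4.62). Isg15, a ubiquitin-like modifier, was at 515 and 424 CPM in control tumors and 2288 and 2562 CPM after IR, with 2.15 (2.10 to 2.20) and 2.60 (2.52 to 2.67). Irf7, the transcription factor that amplifies interferon production, was at 156 and 112 CPM in control tumors and 625 and 529.6 CPM after IR, with 1.998 (1.91 to 2.09) and 2.24 (2.10 to 2.39). Thus the control levels differed between the labels for Rsad2 and hardly for Isg15, while the levels after IR lay close together. Rsad2 was found in 9.80 and 5.76% of thinned cells in control tumors and in 43.5 and 38.1% after IR, against 0.546 and 11.6% of lymphoid cells. After IR it was also found in 37.9 and 40.9% of C1q-high cells and 40.9 and 36.2% of Arg1-high cells. The summed interferon list of C1q-high cells was at 1716 and 1520 CPM in control tumors and 7270 and 7072 CPM after IR. In Arg1-high cells it was at 2224 and 1504 CPM, and 7745 and 6889 CPM after IR. Higher interferon genes after IR were thus shared by the 3 gated classes. Cxcl10 was past the limit in cells labelled WT, at 1.18 (1.14 to 1.21), and below it in cells labelled cKO, at 0.46 (0.42 to 0.50), from the higher control level of the latter. With the clear hashtag margin the ratio in cells labelled WT came to 2.43. Zbp1, a sensor of nucleic acids, was the gene of the list inside the limit in cells labelled WT, at 0.94.

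Among counted genes, the 8 highest ratios in cells labelled WT were those of S100a9, Cstdc4, Ifit1bl1, G0s2, Slfn4, Ifit1, Ifit3b and Oasl1. S100a9 and G0s2 are neutrophil genes on which the cells were limited, and Cstdc4 (a stefin) and the Ifit genes have near-identical copies, so their own values are uncertain. Slfn4, a schlafen gene of interferon-treated monocytes, was at 25.4 and 11.1 CPM in control tumors and 267 and 232 CPM after IR and rested on 579 and 537 cells after IR. Oasl1, an oligoadenylate synthetase relative, was at 30.4 and 22.9 CPM in control tumors and 257 and 259.6 CPM after IR, with 3.07 (2.88 to 3.28) and 3.49 (3.19 to 3.82). In cells labelled cKO the 8 highest were Ifit3b, Cmpk2, Ifit1bl1, Ifit3, Ifit1, Cstdc4, Ifit2 and Rsad2. Cmpk2, a mitochondrial nucleotide kinase next to Rsad2 in the genome, was at 20.7 and 4.12 CPM in control tumors and 136 and 157 CPM after IR, its lowest value in the group in which only 14 cells held a UMI.

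**Figure D4:**
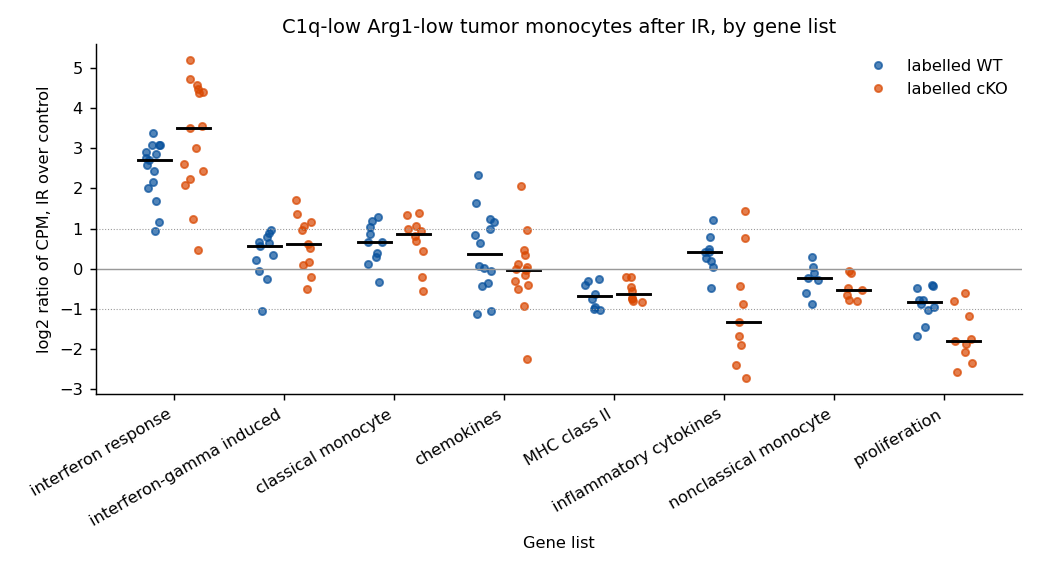
log2 ratio of CPM of IR over control tumors (y axis) in the C1q-low Arg1-low monocytes for 8 gene lists (x axis), with a point per counted gene, blue for cells labelled WT and orange for cells labelled cKO, a black bar at the list's median and dotted lines at the 2-fold limit. The interferon response points lie above 0 under both labels and the MHC class II points below 0, and the inflammatory cytokine medians lie on opposite sides of 0, at 0.42 and -1.31.

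Classical monocyte genes were also higher after IR, and MHC class II genes lower. Of 10 classical monocyte genes, 3 passed the limit upward under each label, with medians of 0.67 and 0.88 and 0 past it downward. These medians lay between 0.55 and 1.35 and between 0.69 and 0.96 over the alternatives but turned to -1.13 and -0.57 with all barcodes shared by the tumor matrices left out, where 14 to 25 cells per group remained. Ly6c2, the antigen by which the cells were sorted, was at 749.8 and 568 CPM in control tumors and 1827 and 1491 CPM after IR, with 1.28 (1.24 to 1.33) and 1.39 (1.33 to 1.46). Plac8 was higher by 0.86 and 0.82, and by 0.74 to 1.38 and 0.60 to 0.93 over the alternatives. Each of the 8 MHC class II genes was lower after IR under both labels, with medians of -0.69 and -0.63, of which 2 passed the limit in cells labelled WT and 0 in cells labelled cKO. H2-Aa, an MHC class II α chain, was at 3634 and 3366 CPM in control tumors and 1816 and 2040.4 CPM after IR, with -1.001 (-1.03 to -0.97) and -0.72 (-0.76 to -0.69). By summed CPM, both directions were shared by the other gated classes. In C1q-high cells the MHC class II list was at 25127 and 18404 CPM in control tumors and 15142 and 13479 after IR. In Arg1-high cells it was at 13787 and 14811 CPM, and 7073 and 7312 after IR. The classical list was at 6426 and 5218 CPM in C1q-high cells, and 10463 and 9091 after IR. In Arg1-high cells it was at 9031 and 9083 CPM, and 12396 and 10848 after IR.

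Chemokine genes were split. Ccl12 and Ccl7, both ligands of Ccr2, were higher, Ccl12 at 20.9 and 24.2 CPM in control tumors and 106 and 101 CPM after IR and Ccl7 at 113 and 158 CPM in control tumors and 351 and 307 CPM after IR. Ccl2 was at 547 and 993 CPM in control tumors and 1292 and 1079 CPM after IR, past the limit in cells labelled WT at 1.24 (1.19 to 1.29) and not in cells labelled cKO at 0.12 (0.07 to 0.18). Cxcl1, a neutrophil chemokine, was lower at -1.13 (-1.25 to -1.004) and -2.23 (-2.38 to -2.09). Cxcl9, induced by interferon-γ, was lower in cells labelled WT at -1.06 (-1.12 to -1.001), from 931 to 447 CPM, whereas Cxcl10, its neighbour and fellow ligand of CXCR3, was higher. In all, 4 genes of the chemokine list passed the limit upward in cells labelled WT and 1 in cells labelled cKO, beside 2.19% and 3.12% of all counted genes. Cxcl1 passed it downward under both labels and Cxcl9 in cells labelled WT. The list's median ran from -0.48 to 0.51 and from -0.57 to 0.06 over the alternatives, so its sign was not kept.

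Checkpoint genes showed 1 uniform direction below the limit. Each of 9 was above 0 under both labels, with medians of 0.43 and 0.52, and Lgals9, encoding the TIM-3 ligand galectin-9, passed the limit under both, at 93.2 and 89.7 CPM in control tumors and 247 and 231 CPM after IR. Cd274, the PD-L1 gene, was at 196 and 184 CPM in control tumors and 323 and 308 CPM after IR, with 0.72 (0.63 to 0.81) and 0.74 (0.62 to 0.87). Havcr2 itself was at 0.08 (-0.03 to 0.19) and 0.28 (0.14 to 0.42). The summed checkpoint list was also higher after IR in the other gated classes. It was at 1351 and 1147 CPM in C1q-high cells of control tumors and 2106 and 2017 after IR. In Arg1-high cells it was at 1377 and 1442 CPM, and 2022 and 2087 after IR. Among suppressive genes, Il10, the anti-inflammatory cytokine, was at 17.4 and 10.3 CPM in control tumors and 2.61 and 1.57 CPM after IR, with too few UMIs to be counted in cells labelled cKO (52 over both treatments) and UMIs in only 29, 14, 7 and 8 cells, and Nos2 was higher at 0.58 (0.44 to 0.72) and 1.70 (1.52 to 1.89). Apoe, a lipid carrier of macrophages, was at 829.7 and 628 CPM in control tumors and 302.18 and 224 CPM after IR, with -1.46 (-1.53 to -1.39) and -1.49 (-1.58 to -1.40). The p53 target list, which includes the cell cycle inhibitor Cdkn1a, had medians of -0.06 and 0.09 and 0 of 6 counted genes past the limit, and the hypoxia list -0.07 and 0.25, with 0 of 13.

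Most of the lowest ratios after IR belonged to genes of other cell types. In cells labelled WT they were Gzmf, Gzmd, Gzme, Xcl1, Gzmg, Gzmc, Dcn and Saa3, and in cells labelled cKO Col3a1, Ccn1, Pcolce, Fstl1, Hist1h2ap, Sparc, Fbln2 and Tnnt2. Gzmf was at 166 CPM in 7 cells labelled WT of control tumors, and Col3a1, a fibrillar collagen, at 37.9 and 65.2 CPM, of which the 5 highest cells held 90.8% and 97.6%. The summed stromal or carcinoma list was at 162 and 199.5 CPM in control tumors and 25.3 and 24.2 CPM after IR, with Krt18 and Cldn4 at 0 in all groups. Without the cells that held 3 or more UMIs of T and NK, B or stromal genes, 199 and 293 genes were past the limit in place of 284 and 396. The proliferation list was lower too, with medians of -0.83 and -1.78 and 3 of 10 and 7 of 9 genes past the limit. With the alternatives these medians ran from -0.87 to -0.29 and from -1.81 to -0.17, so they kept their sign but not their size. At least 3 UMIs of that list were found in 255, 128, 197 and 222 cells (22.3, 23.3, 15.02 and 17.5%), and Mki67, a marker of dividing cells, in 34, 31, 30 and 32 cells.

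Between the labels, the clearest difference lay in control tumors and in inflammatory cytokine genes. There 89 of 7022 counted genes were past the limit (1.27%), 63 higher in cells labelled cKO (0.897%) and 26 lower (0.37%). Of 8 counted inflammatory cytokine genes, 5 were past it upward and 0 downward, with a median of 1.44 beside 0.005 over all genes. That median was 1.30 to 1.54 over the alternatives, except for 0.28 with all shared barcodes left out, which kept 24 and 14 cells. The summed list was at 8615 and 16273 CPM in these monocytes of control tumors. It was also higher under the cKO label in C1q-high cells, at 7317 and 9560 CPM, and in Arg1-high cells, at 13645 and 18999 CPM. Tnf, the gene of tumor necrosis factor, was at 182 and 666 CPM in control tumors and 218 and 179 CPM after IR, a log2 ratio of cKO over WT of 1.87 (1.78 to 1.97) in control tumors. It was carried by 389 and 324 cells there. Il1a, encoding IL-1α, was at 212 and 586 CPM in control tumors and 283 and 236 CPM after IR, with 1.47 (1.38 to 1.56), and Il6 at 24.8 and 85.1 CPM in control tumors and 33.4 and 26.6 CPM after IR, with 1.77 (1.52 to 2.05). In each case cells labelled cKO of control tumors stood apart, and the other 3 groups lay within a narrow band. Il23a, a subunit of IL-23, and Tnfsf9, the ligand of 4-1BB, were at 2.10 (1.66 to 2.61) and 1.41 (1.24 to 1.59). Tnfsf9 was carried by 180 and 166 cells, but Il23a by only 23 and 30, of which the 5 highest held 62.5% and 47.2% of its UMIs. Il1b did not pass the limit, at 7777 and 14253 CPM in control tumors and 7988 and 7776 CPM after IR and 0.87 (0.86 to 0.89). Il12b was nearly absent, with at most 0.393 CPM in any group.

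**Figure D5:**
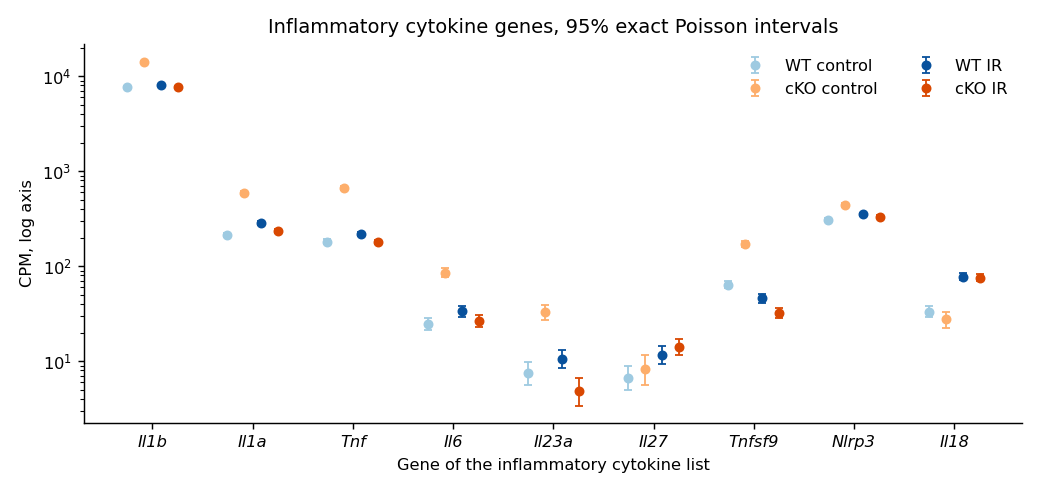
Level of 9 inflammatory cytokine genes (x axis) on a log axis (y axis, CPM) in the C1q-low Arg1-low monocytes of each label and treatment, with 95% exact Poisson intervals. Cells labelled cKO of control tumors are highest for Il1b, Il1a, Tnf, Il6, Il23a, Tnfsf9 and Nlrp3, and both IR groups are highest for Il18 and Il27.

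Feedback genes of NF-κB, the transcription factor downstream of TNF and IL-1, leaned the same way. Of 14 genes on that list 13 were above 0 in control tumors, with a median of 0.32, and Nfkbiz, an inducible IκB protein, was past the limit at 263 and 563 CPM in control tumors and 263 and 229 CPM after IR and 1.10 (1.01 to 1.19). Socs3, a cytokine signalling inhibitor, was at 572 and 1072 CPM in control tumors and 703 and 643 CPM after IR, with 0.91 (0.84 to 0.97). Ccl4, a chemokine gene, was past the limit at 1.05 (0.98 to 1.11) and in 7 of 11 alternatives, and Cxcl2 and Ccl2 were inside it at 0.93 (0.90 to 0.95) and 0.86 (0.80 to 0.92). Among the immediate early genes, whose levels also respond to cell handling, 2 of 13 were past the limit upward, Egr1 at 1.01 and Egr2 at 1.06 (past it in 5 and 9 of 11 alternatives), while Fos was at -0.22 and the median was 0.18. Their part in the cytokine values was not tested. Olr1, of the 5 marker genes the 1 with the largest difference, was at 0.94 (0.78 to 1.10).

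The cytokine difference was as large with the clear hashtag margin, where Tnf was at 187 CPM in cells labelled WT of control tumors and 666 in cells labelled cKO. Over the 11 alternatives that left enough UMIs, the log2 ratio of Tnf ran from 1.74 to 2.04, that of Il1a from 1.18 to 1.58 and that of Il6 from 1.49 to 2.32. Cxcl10 was more dependent on the margin: it was at 513 and 1709 CPM in the clear and the narrow set of cells labelled WT, and its ratio of cKO over WT, 0.61, came to 1.999 with the clear set alone.

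Interferon response genes ran the other way in control tumors. Of 14 counted genes, 6 were past the limit downward in cells labelled cKO and 0 upward, with a median of -0.73. With the clear hashtag margin that median came to -0.17, and under the other alternatives that could be run it lay between -0.78 and -0.52. Cmpk2 was at -2.28 (-3.17 to -1.59), Ifit3 at -1.96 (-2.48 to -1.50) and Rsad2 at -1.58 (-1.80 to -1.36), whereas Isg15 was at -0.28 and Cxcl10 above 0. Summed per label, Cxcl10 and most cytokine genes were thus higher in cells labelled cKO and most antiviral genes lower. The same split was not seen from cell to cell. In cells labelled cKO of control tumors, the set with the most interferon response UMIs had more Tnf and Il1b than that with the fewest. Tnf was at 989 against 500 CPM and Il1b at 17133 against 12236 CPM. Both were also higher in that set of cells labelled WT, at 291 against 120 CPM and 8479 against 7440 CPM.

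Some of the other genes that differed between labels in control tumors were carried by few cells. The 8 highest ratios were those of Csf2, Ikzf2, Crabp1, Il23a, Ube2c, Tnfrsf4, Tnf and Acp5. Csf2, the growth factor GM-CSF, was carried by 6 cells, Crabp1 by 7 and Ube2c, a mitotic ubiquitin enzyme, by 12. The 5 highest of 37 cells held 80.7% of the UMIs of Acp5, a phosphatase of osteoclasts. The 8 lowest were Gzmf, Gzmg, Hspb1, Cmpk2, Ifit3, Saa3, Hspa1b and Rsad2, of which Hspa1b, a chaperone of the heat shock response, was at 133 and 37.6 CPM in control tumors and 27.4 and 20.9 CPM after IR, in 89 and 29 cells of control tumors, and stayed past the limit under each of 11 alternatives. Of 10 counted proliferation genes 7 were past the limit upward, with a median of 1.07, but it came to 0.36 without any C1q UMI and to -0.15 in cells of 3000 to under 10000 UMIs. MHC class II genes had a median of -0.06 and 0 of 8 past the limit, but with the clear hashtag margin the median came to -0.41, and H2-Aa was at 5009 and 3037 CPM in the clear and the narrow set of cells labelled WT, beside 3366 CPM in cells labelled cKO.

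After IR the labels were close. Of 7405 counted genes, 24 were past the limit (0.324%), 17 higher in cells labelled cKO (0.23%) and 7 lower (0.0945%), and these include Ythdf2, Lyz1 and Lyz2. The inflammatory cytokine list had a median of -0.26, with Il23a past the limit downward at -1.10 (-1.73 to -0.55), and the interferon response list a median of 0.01 with 0 of 15 past it. Il23a rested on 27 and 15 cells there, of which the 5 highest held 50.6% and 70.3% of its UMIs. Ccl24, an eotaxin of macrophages, was at 37.6 and 27.1 CPM in control tumors and 25.2 and 68.6 CPM after IR, with 1.44 (1.21 to 1.69), of which the 5 highest cells held 39.9% in cells labelled cKO. Mrc1 was past the limit at 1.02 (0.64 to 1.43), and in 7 of 11 alternatives, and Nos2 inside it at 0.69 (0.58 to 0.80). Of the other 7 genes among the 8 highest, Gzmc, Nkg7, Il2rb, Trbc2 and Cd3g are lymphocyte genes, Dcn is a stromal gene and Csta2 a stefin, and the T and NK list was past the limit in 3 of 5 counted genes, with 0.838 and 1.81% of cells holding 3 or more of its UMIs. Without those cells and the B and stromal ones, 15 genes were past the limit. Plac8, Cxcl10, Adora2b, Havcr2 and Olr1 differed by -0.14, -0.11, -0.04, 0.02 and 0.20.

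Put as levels, the contrast between treatments within each label follows from these groups. In cells labelled cKO, Tnf, Il1a and Il6 were lower after IR, with ratios of -1.89 (-1.99 to -1.80), -1.31 (-1.40 to -1.22) and -1.67 (-1.94 to -1.42) on the log2 scale, and 5 of 9 counted cytokine genes were past the limit downward. In cells labelled WT the same genes were at 0.26 (0.16 to 0.37), 0.42 (0.33 to 0.52) and 0.43 (0.15 to 0.71), with 0 past it downward. Il18, an interferon-inducible cytokine of the IL-1 family, was past it upward under both labels, at 33.3 and 27.6 CPM in control tumors and 77.7 and 75.4 CPM after IR. The contrasts between treatments and between labels share groups, so these values are the same 4 levels read along the other side.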

How the data were processed

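The authors deposited, for each of 4 droplet libraries (tumor and blood, each control and IR), raw counts of UMIs per gene and hashtag and per barcode. Per the labels and the matrix headers, these were made with Cell Ranger 6.0.1 (the headers name version 4), with Seurat 4.0.6 among the tools and mm10 as the build. Here, barcodes were filtered and classed by the rule given above, summed per class, label and library, and expressed as CPM. The members and the 28 gene lists were chosen with earlier results of these data known. With 1 pool per group no test was run. Intervals are exact Poisson (CPM), exact conditional binomial (ratios), Clopper-Pearson (shares) and Newcombe (differences of shares), at 95%. PCR and droplet loss are not covered. Named genes are the 5 markers, list members, the 12 highest and 12 lowest against other gated cells (by the smallest log2 ratio over the 4 groups), and the 8 highest and 8 lowest past the limit per comparison, leaving out Ythdf2, Lyz1, Lyz2, Xist, Y-linked genes and genes without a symbol, plus the 10 with the largest rise and fall after IR under both labels. Doublets were scored with Scrublet (scanpy 1.11.5) only as an alternative. Gene UMIs per library ran from 51653956 to 87703837. The CPM and ratio intervals rest on UMIs summed per group, 3879721 to 7670936 in these monocytes, and the share intervals on cell counts. Tools were Python 3.11.15, numpy 2.4.6, pandas 2.3.3, scipy 1.17.1, R 4.3.3 and edgeR 4.0.16, which only gave the TMM scaling of an alternative. The code was tested on simulated data. Alternatives covered scaling, count minimum, cell weighting, hashtag margin, doublets, shared barcodes, depth, mitochondrial share, rule limits and other cell types.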

Additional observations from a re-analysis of the deposited data

Results flagged for a closer look

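The share of these monocytes and the named genes were screened for differences with IR of opposite sign under the 2 labels, and 5 were flagged. Both counting intervals had to exclude 0, and for a gene at least 1 ratio had to reach 2-fold. Gene lists were not screened. Each label had 1 pool per treatment, so the difference between labels was not tested. The share of C1q-low Arg1-low monocytes among labelled tumor cells was 3.32 points lower after IR in cells labelled WT and 7.88 points higher in cells labelled cKO, which differ by 11.2 points. With the clear hashtag margin required, the difference in cells labelled WT was 7.86 points, of the same sign and nearly the size of that in cells labelled cKO. The log2 ratio of IR over control for Tnf was 0.26 and -1.89, a difference of cKO minus WT of -2.16. For Il1a, which encodes IL-1α, it was 0.42 and -1.31, a difference of -1.73. For Il6 it was 0.43 and -1.67, a difference of -2.10. Each of these 3 cytokine genes was highest in cells labelled cKO of control tumors. For Ccl24, an eotaxin gene, the ratios were -0.58 and 1.34, a difference of 1.91, and its UMIs came from 29 to 90 cells per group.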

How the results depend on the processing

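No paired analysis was possible because each label and treatment had 1 pool, and for the same reason no replicate could be left out. With 20 or more UMIs in place of 100, 788 and 1049 genes were past the limit for IR in cells labelled WT and cKO, and 426 and 217 between labels in control and IR tumors. With all barcodes shared by the tumor matrices left out, only 14 to 25 cells per group remained, with 1, 3, 5 and 1 of only 22, 23, 24 and 19 counted genes past the limit and share differences of -6.36, 2.88, -3.87 and 5.38 points, the last reversed. In cells of 3000 to under 10000 UMIs, the genes for IR were 176 and 251 and those between labels after IR 9, and the share differences -6.34, -1.46 (reversed), -14.5 and -9.57 points. Without cells holding T and NK, B or stromal genes, 59 and 15 genes were past the limit between labels in control and IR tumors, and the share difference with IR in cells labelled WT was -6.13 points. With a WT margin of 4, the share differences were 7.86 points with IR (reversed), -3.89 between labels in control tumors and -3.87 after IR. Without any C1q UMI they were -0.715 points with IR in cells labelled WT and -15.2 between labels in control tumors. Reversed single values, all of genes on few cells, were Acp5 with IR in cells labelled cKO (0.29 without C1q, 0.18 by depth) and between labels in control tumors (-0.062 and -0.12), Dcn between labels after IR (-0.40 by cell weighting) and in control tumors (0.45 by margin, 0.90 without C1q), Gzmc with IR in cells labelled cKO (0.86 by depth) and Ube2c between labels after IR (-0.83 without C1q). The proliferation list turned to -0.15 between labels in control tumors by depth, and the inflammatory cytokine list to -0.63 with IR in cells labelled WT and 0.91 between labels after IR without shared barcodes, among others. The causes were not tested. Of 211 ratios of named genes past the limit, 198 stayed past it with TMM scaling and 176 with cell weighting, and 108 of the 123 with a value did so by depth.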
